A study of Mus musculus with 78 samples.

Results

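Rapamycin in the food of genetically mixed mice was set against the same food without the drug, in liver RNA of 12-month-old animals. The comparison used 12 of the 78 libraries of the series, chosen by their labels: 3 females and 3 males of the UM-HET3 stock given rapamycin at 14 ppm for 8 months, and 3 females and 3 males of the same stock and age on the plain Purina 5LG6 diet. UM-HET3 mice descend from a cross of several inbred strains, so animals within a group differ in genotype, and no allele was engineered in any of them. The other 12-month-old mice were on calorie restriction or on acarbose at 1000 ppm for 8 months, with 3 of each sex, and they shared the 12-month control animals with the rapamycin mice. A second rapamycin set, 6 months old and given 42 ppm for 2 months, had 3 females, 3 males and controls of its own. Every library was made from poly(A)-selected RNA of 1 frozen liver, so hepatocytes and the minor liver cell types were read together.

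Rapamycin is a macrolide that binds the small immunophilin FKBP12, and the pair then docks on the kinase mTOR within mTOR complex 1, the complex that couples amino acids and insulin to ribosome building, translation, lipid synthesis and the restraint of autophagy. Prolonged dosing is known to disturb mTOR complex 2 as well, which in liver serves insulin signalling through AKT. Most direct outputs of both complexes are phosphorylations, which RNA levels do not report. In mouse liver many genes for drug-handling enzymes, transporters and urinary proteins also differ between the sexes under the pulsed or continuous release of growth hormone, so females and males were fitted apart before they were averaged.

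The 12 libraries held between 15827608 and 20638697 counts assigned to genes. Levels are CPM, read counts scaled by the adjusted library total, which do not allow for gene length, so they were compared between libraries and not between genes. Differences are log2 fold changes ± SE, rapamycin over control, from edgeR's quasi-likelihood test on 13639 genes with Benjamini-Hochberg adjustment. For both sexes together the difference in females and the difference in males were averaged, with 3 libraries in each sex and group. A gene was called at an adjusted p under 0.05, and only then is it said to have risen or fallen. The spread behind the tests is that among the labelled animals, pooled over the 24 libraries of 12 months. Fewer cells of a type and less RNA per cell cannot be told apart in whole liver.

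Hepatocyte genes dominated all 12 libraries: 14 hepatocyte markers summed to between 114288 and 237353 CPM. One library carried RNA of other tissues. In rapamycin male 3, 26 skeletal muscle genes summed to 47250 counts, 0.286% of the library, against 133 to 392 counts in each of the other 11 libraries. A shorter list of 6 skeletal muscle genes gave 26499 counts there and 6 to 22 elsewhere. A list of 20 squamous epithelium genes, chosen after values had been seen, summed to 16355 counts in the same library and to 27 to 68 in the others. Counts and medians that this changed are also given without this library and without calorie-restricted female 1, as "without the doubted libraries". The control groups were uneven too. Control female 1 had high immune transcripts, control male 2 high lipogenic transcripts, and control male 3 a high acute phase gene, Saa2, at 811 CPM against 11.1 and 3.5 CPM in the other control males, with 5.34, 32.8 and 12.8 CPM in the rapamycin males.

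**Figure D1:**
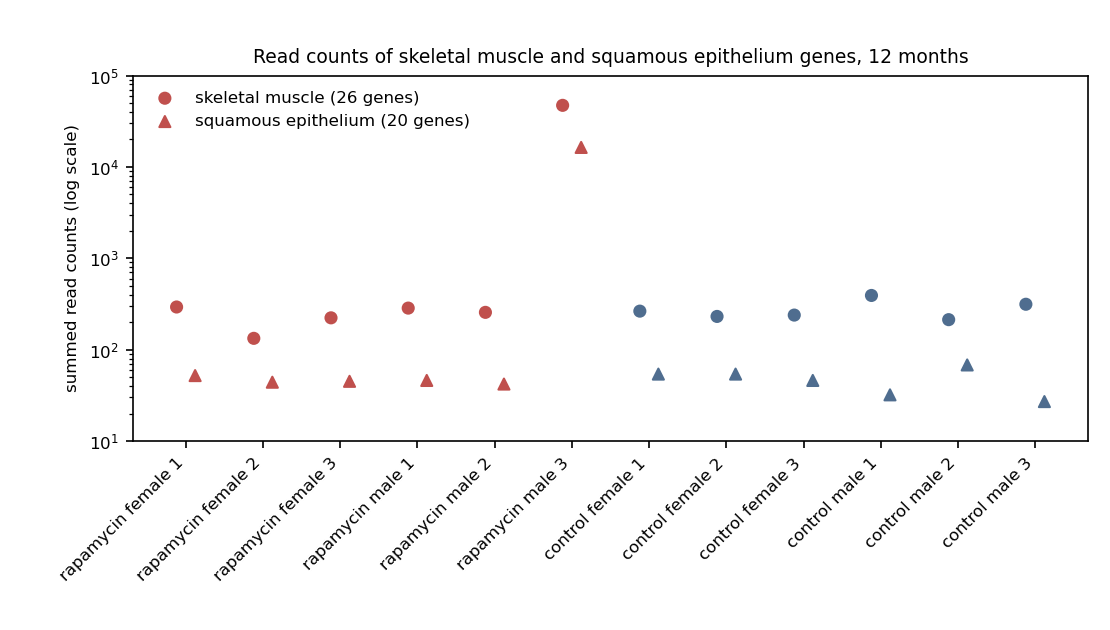
Summed read counts (log scale) of 26 skeletal muscle genes (circles) and 20 squamous epithelium genes (triangles) in each 12-month library, rapamycin in red and control in blue. Rapamycin male 3 stands at 47250 and 16355 counts, while the other 11 libraries lie between 133 and 392 for muscle and between 27 and 68 for epithelium.

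No gene was called over both sexes: 0 of 13639 genes (0%) passed in edgeR, with a smallest adjusted p of 0.0979. At an unadjusted p under 0.05, 278 genes (2.04%) were higher and 387 (2.84%) were lower in the rapamycin livers, and DESeq2 called 10 genes. Without the doubted libraries edgeR again called 0, with 523 genes at an unadjusted p under 0.05. In females 2 genes passed (0.0147%), and in males 1 gene passed (0.00733%). Among 9141 genes with a mean of at least 2 on the log2 CPM scale, the median SE was 0.145, and for 95.9% of them the 95% interval lay within a 2-fold change in either direction. The median absolute log2 fold change of these genes was 0.0988 for rapamycin, beside 0.205 for calorie restriction and 0.121 for acarbose against the same control livers.

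Slco1a1, which encodes a hepatocyte transporter for organic anions and is a male-type gene of mouse liver, rose in females. It lies on chromosome 6 from 141907282 to 141946962 on the minus strand of GRCm38. Its level was 120, 26.1 and 10.1 CPM in the rapamycin females, against 1.98, 2.63 and 2.94 CPM in the control females. The groups did not overlap, although the 3 rapamycin females themselves spanned a wide range. The log2 fold change was 4.37 ± 0.66 (adjusted p = 0.0418). Males already had high levels, with 602, 453 and 495 CPM under rapamycin and 465, 409 and 393 CPM in controls, a log2 fold change of 0.29 ± 0.56 (adjusted p = 1) with overlapping groups. The male effect minus the female effect was -4.08 ± 0.84 (unadjusted p = 0.000123, adjusted p = 0.458). The female call was kept in 3 of 12 refits that left out 1 library, those without a rapamycin female, with log2 fold changes of 2.85 to 4.86 and adjusted p from 0.000184 to 0.422, and it was lost without the doubted libraries (adjusted p = 0.0545).

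The second gene called in females was Mgat2, the Golgi enzyme that adds a branch to N-linked sugar chains of secreted proteins (chromosome 12, 69184157 to 69186770, plus strand, GRCm38). It stood at 61.6, 50.9 and 53.2 CPM in the rapamycin females, against 33.4, 36.8 and 31.5 CPM in the control females. Every treated female lay above every control female, and the rise was 0.70 ± 0.12 (adjusted p = 0.0453). The male values were 48.2, 52.4 and 48.8 CPM under rapamycin and 49.4, 50.3 and 51.8 CPM in controls, at -0.02 ± 0.12, with overlapping groups. The adjusted p was close to the bound, and the call was kept in 0 of the 12 refits without 1 library (adjusted p 0.0726 to 0.548).

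The gene called in males was Ifi202b, an interferon-inducible gene of the p200 family on chromosome 1 (173962568 to 173982744, minus strand, GRCm38), which fell outside the naming rule because of its low level and is named, after its values were seen, because it was the only one. The rapamycin males had 22, 16 and 19 reads of it and the 3 control males had 0, 0 and 0, so the treated mean of 1.14 CPM was at least 7.3-fold higher than a floor of 3 counts per library (adjusted p = 0.0407). Females held the transcript in both groups, at 1.83, 2.17 and 6.01 CPM under rapamycin and 3.73, 1.53 and 1.91 CPM in controls. The male call was kept in 7 of 12 refits without 1 library, and it was lost without rapamycin male 3, control female 3 or any 1 control male, and without the doubted libraries (adjusted p = 0.105). Ifi202b has near-identical relatives, between which reads may have been divided.

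**Figure D2:**
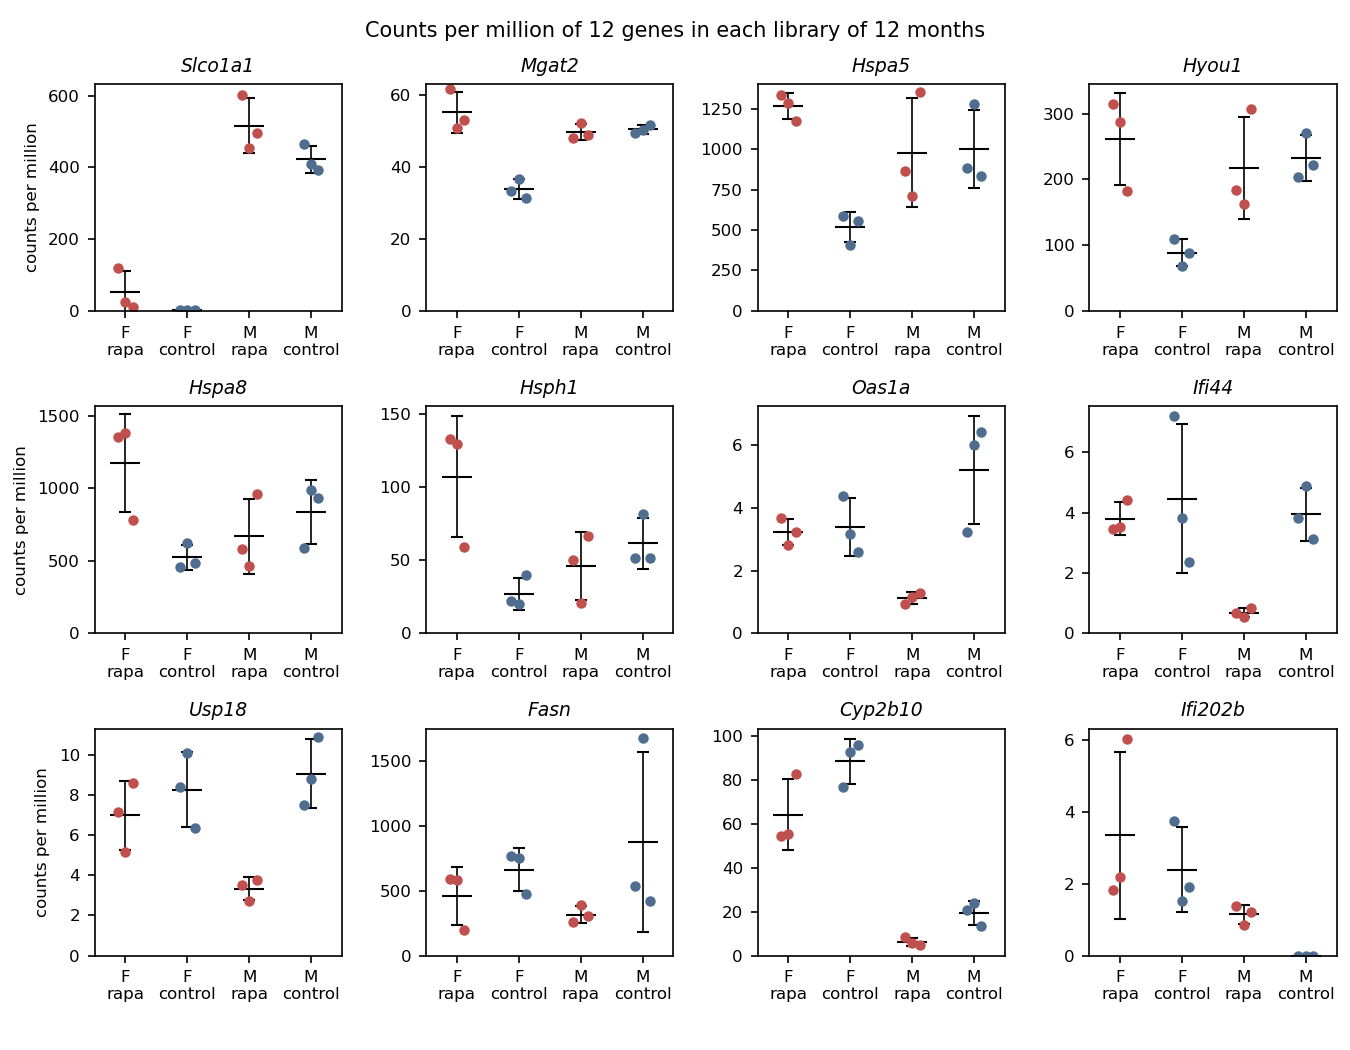
CPM of 12 genes in each 12-month library, with rapamycin (red) left of control (blue) in females (F) and males (M); horizontal marks are means and bars are SDs (n = 3). Slco1a1, Mgat2 and the chaperone genes separate the females, and Oas1a, Ifi44, Usp18, Cyp2b10 and Ifi202b separate the males.

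The 20 genes closest to being called, 10 in each direction by unadjusted p among genes shifted the same way in all 6 rapamycin livers, had adjusted p-values over both sexes between 0.207 and 0.892. On the higher side were 2 transcripts of the mitochondrial genome, both subunits of the respiratory chain. mt-Nd4, of complex I, measured 3122, 3254 and 3191 CPM in the rapamycin females and 1949, 1924 and 2241 CPM in the control females, and 2891, 2711 and 3080 CPM in the rapamycin males and 2690, 2648 and 2320 CPM in the control males (0.41 ± 0.10). Neither sex showed overlap. mt-Cytb, of complex III, followed at 0.39 ± 0.12. Among the 44 respiratory chain genes of the fixed list, however, 0 were higher or lower over both sexes at an unadjusted p under 0.05, with a median log2 fold change of 0.15 against -0.0029 over all genes tested.

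Gcsh, a subunit of the mitochondrial glycine cleavage system, also separated the groups in each sex. Its values were 115, 127 and 135 CPM in rapamycin females against 99.5, 98.4 and 97.6 CPM in control females, and 109, 118 and 116 CPM in rapamycin males against 79.4, 87.6 and 97.4 CPM in control males (0.36 ± 0.10, adjusted p = 0.822). The other genes on the higher side were the cytochrome P450 genes Cyp2f2 (0.53 ± 0.14) and Cyp2a12 (0.34 ± 0.10), Mrpl20 of the mitochondrial ribosome (0.50 ± 0.14), Tmem248 (0.41 ± 0.10), the Golgi traffic regulator Arfgap3 (0.72 ± 0.21), the complement regulator Susd4 (1.21 ± 0.34) and Slco1a1 (2.33 ± 0.42).

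On the lower side stood Cyp2b10, a cytochrome P450 and the textbook target of the nuclear receptor CAR. Rapamycin males had 8.32, 5.84 and 4.85 CPM and control males 20.8, 23.7 and 13.3 CPM, without overlap. Females had 54.6, 55.2 and 82.9 CPM under rapamycin and 76.9, 93.0 and 95.8 CPM in controls, where 1 treated animal reached into the control range. The log2 fold change was -1.03 ± 0.24 over both sexes (adjusted p = 0.668) and -1.61 ± 0.35 in males (adjusted p = 0.425). Fam129b (-0.90 ± 0.21), Pomt1 (-0.40 ± 0.11), Frmd8 (-0.38 ± 0.10), Cyth3 (-0.46 ± 0.14), Dqx1 (-0.47 ± 0.15) and Gna14 (-0.70 ± 0.22) were on this side too. The last 3 of the 10 belong to interferon biology: Uba7, which activates the ubiquitin-like protein ISG15 (-0.61 ± 0.17), and the immunity-related GTPases Irgm2 (-0.69 ± 0.22) and Igtp (-0.68 ± 0.23).

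The drug's own pathway showed no called change in RNA. Mtor, the kinase itself, measured 42.9, 42.1 and 36.3 CPM in rapamycin females and 45.2, 39.4 and 45.3 CPM in control females, with 53.9, 53.9 and 31.9 CPM in rapamycin males and 43.6, 33.0 and 36.5 CPM in control males. The groups overlapped in both sexes, and the log2 fold change was 0.10 ± 0.16. Fkbp1a, which encodes FKBP12, was at 0.05 ± 0.14. The scaffold of complex 1, Rptor, was at -0.10 ± 0.13, and that of complex 2, Rictor, at -0.15 ± 0.20. The substrates Rps6kb1 and Eif4ebp1, through which complex 1 acts on translation, were at 0.05 ± 0.11 and 0.07 ± 0.20. Among the inhibitors, Tsc1 was at -0.18 ± 0.15, Tsc2 at -0.06 ± 0.09, Deptor at -0.04 ± 0.17 and the stress-induced Ddit4 at -0.40 ± 0.28. Adjusted p-values of these 10 genes were at least 0.977. Of 24 genes for subunits and substrates of both complexes, 2 were higher at an unadjusted p under 0.05 (Atg13 and Eif4e) and 0 were lower. Of 37 upstream genes, such as the Rag, GATOR and TSC modules, 0 were higher and 0 lower. Over all genes, 2.04% were higher and 2.84% lower at that bound.

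Eif4e, the cap-binding protein that 4E-BP1 restrains, had 45.1, 43.8 and 56.7 CPM in rapamycin females and 31.8, 34.9 and 39.0 CPM in control females, without overlap (0.46 ± 0.13, adjusted p = 0.306). In males it measured 48.0, 42.5 and 52.7 CPM under rapamycin and 46.9, 50.1 and 46.6 CPM in controls. Of the 36 translation factors, 7 were higher in females at an unadjusted p under 0.05, where 3.47% of all genes were higher and 4.52% lower. The others were Eif2s2, Eif3e, Eif3b, Eif5b, Eif2s1 and Eif3m, between 0.28 and 0.42. In females 13 of the 36 factors had all treated animals above all controls, against 7.15% of all genes. The median of the list was 0.24 in females and 0.09 in males, against -0.02 and 0.0048 for all genes. No factor was higher or lower in males at that bound.

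Ribosomal protein messages, whose translation depends on mTOR complex 1, had medians over both sexes of 0.18 for 45 genes of the large subunit and 0.16 for 32 of the small one. Without the doubted libraries these medians were 0.11 and 0.08. In males they were 0.12 for each subunit, and -0.0033 for the large and -0.03 for the small one without those libraries. Rapamycin male 3 had the highest sums of the 12 libraries, 12139 CPM for the large and 8403 CPM for the small subunit, and its part in the medians was not tested. Of these genes, Rpl4, Rpl21 and Rps3a1 were higher over both sexes at an unadjusted p under 0.05 and 0 were lower. Over all genes, 2.04% were higher and 2.84% lower. Of 31 ribosome biogenesis genes, 5 were higher in females (Rrp12, Wdr12, Nop14, Ddx21 and Nop58) and 0 in males. Among all genes, 3.47% were higher in females and 1.72% in males. The female count of 5 fell to 1 without control female 2, where 3.43% of all genes were higher.

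Autophagy and lysosome genes, which mTOR complex 1 holds back through ULK1 and TFEB, had a median of 0.05 over both sexes. Of 36 genes, 3 were higher over both sexes at an unadjusted p under 0.05 and 0 were lower. The shares over all genes were 2.04% higher and 2.84% lower. Atg13, a partner of ULK1, had 65.5, 61.7 and 52.0 CPM in rapamycin females against 40.1, 42.5 and 38.4 CPM in control females, and 58.9, 57.4 and 67.0 CPM in rapamycin males against 58.1, 49.3 and 52.8 CPM in control males (0.38 ± 0.12, adjusted p = 0.892). The females did not overlap, and the males overlapped by a narrow margin. The other 2 were the conjugating enzyme Atg3 (0.27 ± 0.09) and the lysosomal membrane protein Lamp1 (0.18 ± 0.08).

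Chaperone genes of the endoplasmic reticulum and the cytosol had higher levels in rapamycin females. edgeR called none of them, while DESeq2 called 5: Dnajb9 (adjusted p = 0.00114), Hyou1 (0.0149) and Hspa5 (0.0161) of the endoplasmic reticulum, and Chordc1 (0.0111) and Hsph1 (0.0161) of the heat shock list. The first serve the unfolded protein response, in which the sensors IRE1, PERK and ATF6 raise chaperones and degradation factors when unfolded protein builds up in the endoplasmic reticulum, and the second are targets of the heat shock factor HSF1. The promoter sequences of 2 members of each list are shown as examples that hold a match to the motif of that list. They run from 250 bases before to 50 bases after the RefSeq start site (GRCm38.p6), 5′ to 3′ on the gene's strand, with motif matches in capitals. In Hspa5 and Creld2 these are the endoplasmic reticulum stress element, CCAAT and CCACG with 9 free bases between them, and in Chordc1 and Hsph1 a heat shock element, GAA, TTC and GAA with 2 free bases between neighbours. Both strands were searched. Hspa5 lies at chr2:34771840-34772139 (plus strand), Creld2 at chr15:88819396-88819695 (plus), Chordc1 at chr9:18292017-18292316 (plus) and Hsph1 at chr5:149636287-149636586 (minus).
Hspa5: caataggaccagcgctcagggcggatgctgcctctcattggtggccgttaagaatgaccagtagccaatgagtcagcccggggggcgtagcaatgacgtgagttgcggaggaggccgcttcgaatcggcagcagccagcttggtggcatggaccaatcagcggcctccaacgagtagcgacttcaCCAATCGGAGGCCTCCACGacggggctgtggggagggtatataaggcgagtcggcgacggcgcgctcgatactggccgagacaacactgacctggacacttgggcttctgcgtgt
Creld2: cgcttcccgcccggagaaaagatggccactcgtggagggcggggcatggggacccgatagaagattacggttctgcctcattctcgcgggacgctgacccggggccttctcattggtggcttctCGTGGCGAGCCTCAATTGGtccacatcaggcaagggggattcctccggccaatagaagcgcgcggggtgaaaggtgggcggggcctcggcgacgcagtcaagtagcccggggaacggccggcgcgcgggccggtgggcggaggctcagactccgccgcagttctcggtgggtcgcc
Chordc1: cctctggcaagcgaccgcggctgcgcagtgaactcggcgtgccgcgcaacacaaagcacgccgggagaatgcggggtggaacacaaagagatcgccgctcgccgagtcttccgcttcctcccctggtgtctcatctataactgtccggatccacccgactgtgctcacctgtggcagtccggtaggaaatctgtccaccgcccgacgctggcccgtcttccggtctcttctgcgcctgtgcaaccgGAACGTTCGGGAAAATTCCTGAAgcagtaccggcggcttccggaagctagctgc
Hsph1: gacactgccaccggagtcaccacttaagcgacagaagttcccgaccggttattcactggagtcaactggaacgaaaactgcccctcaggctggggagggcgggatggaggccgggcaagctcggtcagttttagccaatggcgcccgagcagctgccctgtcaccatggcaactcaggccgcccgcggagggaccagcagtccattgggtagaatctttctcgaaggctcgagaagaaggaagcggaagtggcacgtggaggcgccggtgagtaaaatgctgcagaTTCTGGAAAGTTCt

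The first motif was present in 39 of 32851 mouse promoters of this length (0.119%) and in 8 of the 20 promoters found for tested members of the endoplasmic reticulum list: Hspa5, Hsp90b1, Calr, Canx, Pdia6, Dnajc3, Creld2 and Syvn1. The second motif was present in 198 promoters (0.603%) and for 4 of 13 such genes of the heat shock list: Hspd1, Hspe1, Hsph1 and Chordc1. No match was in the promoter of Dnajb9. These matches describe the letters only, and members with and without a match are found among the genes that were higher.

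Of 23 endoplasmic reticulum chaperone and unfolded protein response genes, 8 were higher in rapamycin females at an unadjusted p under 0.05, against 3.47% of all genes, and 0 were lower. edgeR called none, and DESeq2 the 3 named. Their median log2 fold change was 0.42 in females and -0.05 in males, the second -0.26 without the doubted libraries. In females 22 of 23 were above 0, and 14 had every treated animal above every control, against 7.15% of all genes. Hspa5, the master chaperone BiP, measured 1334, 1287 and 1175 CPM in rapamycin females against 588, 411 and 558 CPM in control females (1.29 ± 0.31, adjusted p = 0.268). The 3 treated females thus stood apart from the 3 controls. Males overlapped widely, with 867, 708 and 1355 CPM under rapamycin and 886, 1280 and 835 CPM in controls (-0.03 ± 0.30).

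Dnajb9, a BiP cochaperone, had 107, 93.3 and 109 CPM in rapamycin females against 32.0, 31.5 and 42.5 CPM in control females (1.54 ± 0.31, adjusted p = 0.135). Hyou1, a large chaperone that exchanges nucleotide on BiP, had 315, 288 and 182 CPM against 109, 67.7 and 88.2 CPM (1.57 ± 0.38). Creld2, a secreted stress protein, had 123, 119 and 52.9 CPM against 29.0, 18.0 and 15.9 CPM (2.23 ± 0.68). In all 3 genes the lowest treated female was above the highest control. Manf (1.64 ± 0.47), the degradation ligase Syvn1 (1.43 ± 0.42), Dnajb11 and the sensor gene Eif2ak3, which encodes PERK, completed the 8. Other members were closer to controls in females, among them Xbp1 at 0.30 ± 0.22, Calr at 0.18 ± 0.28 and the stress-induced death factor Ddit3 at 0.64 ± 0.37.

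The summed level of the endoplasmic reticulum list was 8299, 8536 and 7187 CPM in rapamycin females and 5866, 5362 and 6172 CPM in control females, and 6557, 6079 and 9224 CPM in rapamycin males and 7255, 8321 and 6986 CPM in control males. The male with the highest sum was rapamycin male 3, the library with muscle RNA, whose part in this was not tested. Over refits that left out 1 library, 7 to 12 of the 23 genes were higher in females. Over both sexes 7 were higher, against 2.04% of all genes, and 3 without the doubted libraries.

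Of 19 heat shock genes, 11 were higher in rapamycin females at an unadjusted p under 0.05, where 3.47% of all genes were higher, and 0 were lower, with a median of 0.60 and all 19 above 0. In males the median was -0.20, and -0.37 without the doubted libraries. Chordc1, a cochaperone of HSP90, had 53.9, 51.9 and 42.7 CPM in rapamycin females against 19.5, 18.4 and 26.9 CPM in control females (1.20 ± 0.27, adjusted p = 0.195). Hsph1, an HSP110 chaperone, had 133, 130 and 59.3 CPM against 21.7, 19.8 and 39.7 CPM (1.98 ± 0.53). Hspa8, the constitutive HSP70, had 1352, 1381 and 782 CPM against 460, 623 and 487 CPM (1.16 ± 0.35). None of these 3 genes overlapped between the female groups, and in each of them rapamycin female 3 was the lowest treated animal. Hsp90aa1 (1.40 ± 0.39), Dnaja1 (0.96 ± 0.25), Dnajb1, Hspa4, Hspa4l, Dnajb4, Hsp90ab1 and the strongly inducible Hspa1b made up the rest of the 11. Hspa1b itself was at 31.8, 40.5 and 4.71 CPM in rapamycin females and 1.05, 2.82 and 4.18 CPM in control females, so the third treated animal was near the controls.

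In males the heat shock genes of the 2 groups overlapped more. Chordc1 had 28.3, 14.5 and 30.8 CPM in rapamycin males and 31.3, 33.9 and 26.6 CPM in control males. The 1 gene of the list that was higher in males, Cryab, rests on rapamycin male 3, with 38.1 CPM against 2.98 and 3.45 CPM in the other rapamycin males and 3.28, 4.49 and 3.34 CPM in control males. Cryab is also abundant in muscle. The female count of 11 fell to 7 without rapamycin female 2, its lowest over the refits. For the male effect minus the female effect, Chordc1 was at -1.52 ± 0.38 (unadjusted p = 0.000578), Dnajb9 at -1.78 ± 0.43 (unadjusted p = 0.000505) and Hspa5 at -1.32 ± 0.43 (unadjusted p = 0.00606). None of these differences between the sexes passed the adjustment (adjusted p 0.81 to 0.838), nor did any other gene: 0 of 13639 (0%) were called in edgeR, with 773 at an unadjusted p under 0.05, and DESeq2 called 6.

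Interferon-response genes separated the males. They encode the antiviral program that interferon receptors switch on through interferon-stimulated response elements. The promoters of Oas1a at chr5:120907476-120907775 and Isg15 at chr4:156200769-156201068 (both minus strand, GRCm38.p6, RefSeq) are shown as examples that hold a match, which the promoter of Ifi44 did not. Capitals mark a core of the response element, GAAA and GAAA with 2 free bases between them, searched on both strands, where overlapping matches run together.
Oas1a: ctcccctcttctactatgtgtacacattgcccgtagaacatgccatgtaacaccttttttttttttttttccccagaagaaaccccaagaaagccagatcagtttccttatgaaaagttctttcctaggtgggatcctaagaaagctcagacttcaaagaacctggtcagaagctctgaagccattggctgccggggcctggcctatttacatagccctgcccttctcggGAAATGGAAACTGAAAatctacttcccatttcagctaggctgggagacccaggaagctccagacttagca
Isg15: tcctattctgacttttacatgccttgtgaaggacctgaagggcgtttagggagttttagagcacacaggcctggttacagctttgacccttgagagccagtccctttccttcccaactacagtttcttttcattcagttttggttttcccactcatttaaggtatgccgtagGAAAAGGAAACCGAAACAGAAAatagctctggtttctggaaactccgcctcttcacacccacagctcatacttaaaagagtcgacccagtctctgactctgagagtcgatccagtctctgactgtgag

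This motif was present in 1131 of 32851 promoters (3.44%). Of the 30 interferon-response genes 22 had a promoter, and 13 of these genes had a match in any of their promoters. The units again differ, and the matches describe the letters only.

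Of the 30 interferon-response genes, 18 were lower in rapamycin males at an unadjusted p under 0.05, where 1.34% of all genes were lower and 1.72% higher. edgeR called none, and DESeq2 called 3: Ifi44 (adjusted p = 0.00651), Oas1a (0.00802) and Usp18 (0.0266). Their median log2 fold change was -0.82 in males and 0.05 in females. In males 23 of 30 had every treated animal below every control, against 3.48% of all genes. Oas1a, an enzyme that makes the activator of RNase L, had 0.931, 1.17 and 1.28 CPM in rapamycin males against 3.23, 5.99 and 6.42 CPM in control males (-2.20 ± 0.47, adjusted p = 0.425). Ifi44 had 0.683, 0.531 and 0.830 CPM against 3.81, 4.89 and 3.13 CPM (-2.53 ± 0.53, adjusted p = 0.425). In both genes all 3 treated males were below every control male, at levels of a few CPM.

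Usp18, the protease that removes ISG15, had 3.54, 2.71 and 3.77 CPM in rapamycin males against 7.48, 8.79 and 10.9 CPM in control males (-1.44 ± 0.33, adjusted p = 0.454). Isg15 itself had 6.70, 6.53 and 9.20 CPM against 13.3, 22.4 and 14.6 CPM (-1.16 ± 0.33), and Ifit1, which binds viral RNA ends, had 6.21, 3.66 and 3.70 CPM against 12.2, 15.3 and 10.7 CPM (-1.49 ± 0.41). No overlap was present in any of these. The transcription factor Irf7 had 27.1, 32.5 and 34 CPM against 48.5, 68.7 and 43.3 CPM (-0.78 ± 0.34). Mx1, Oas1g, Oas2, Oasl2, Ifit2, Ifit3, Rsad2, Ifi27, Gbp3, Irf9, Irgm1 and Igtp made up the 18, between -0.49 and -1.57.

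The summed level of the interferon list was 729, 797 and 819 CPM in rapamycin males and 1002, 1141 and 1076 CPM in control males. Females showed 1040, 932 and 1120 CPM under rapamycin and 1065, 1130 and 946 CPM in controls, with overlap. In females Oas1a was at 3.66, 2.82 and 3.23 CPM under rapamycin and 4.39, 3.15 and 2.58 CPM in controls, and 1 of the 30 genes, the guanylate-binding protein Gbp2, was lower at an unadjusted p under 0.05. Mx2, chosen after its values were seen because DESeq2 called it in males, ran opposite ways in the sexes. It had 8.32, 6.11 and 9.70 CPM in rapamycin females and 4.04, 5.16 and 7.07 CPM in control females (0.57 ± 0.25), but 5.40, 8.33 and 6.13 CPM in rapamycin males and 13.8, 14.1 and 15.8 CPM in control males (-1.13 ± 0.25), a sex difference of -1.70 ± 0.35 (adjusted p = 0.458). The male count was 15 of 30 without the doubted libraries and 13 without control male 2, its lowest. Macrophage and Kupffer cell markers summed to 314, 383 and 304 CPM in rapamycin males and 363, 332 and 416 CPM in control males, and their part in the result was not tested.

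**Figure D3:**
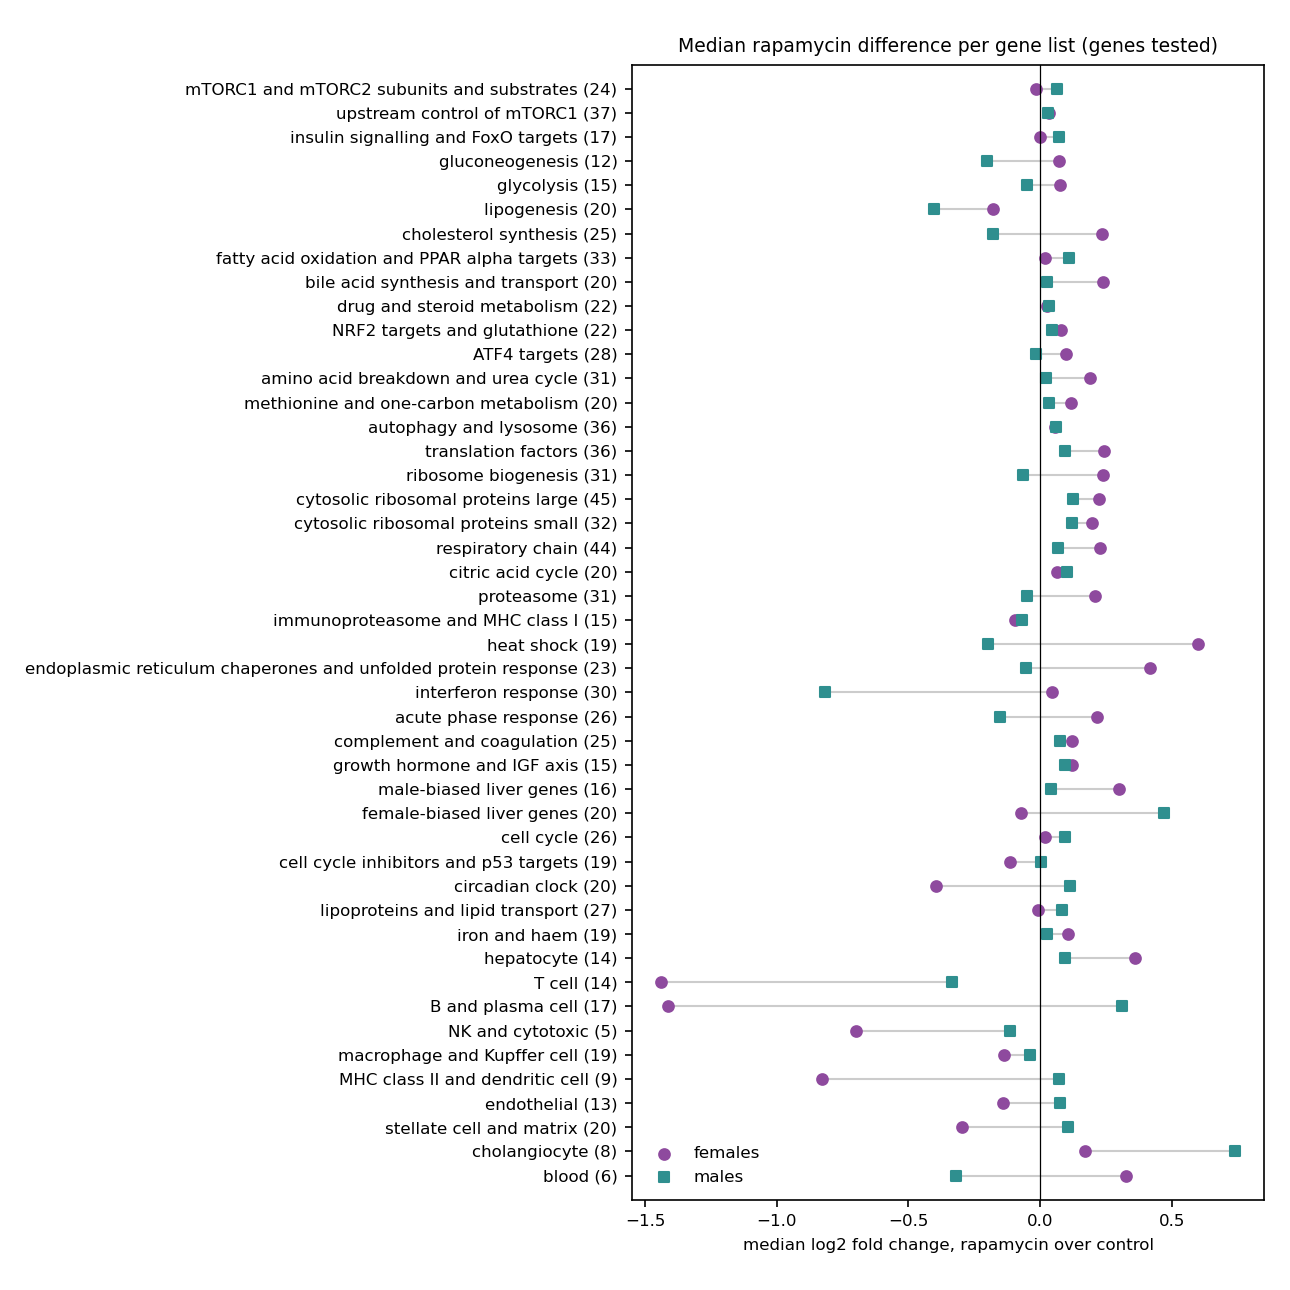
Median log2 fold change, rapamycin over control, of the tested genes of each list (number in brackets), in females (circles) and males (squares), without lists of tissues outside the liver or with very few tested genes. Heat shock (0.60 in females, -0.20 in males), endoplasmic reticulum chaperones (0.42 and -0.05) and interferon response (0.05 and -0.82) show wide gaps between the sexes, and the T cell and B cell lists lie far left in females.

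Many T cell and B cell genes had lower levels in rapamycin females, in counts that rested on control female 1. Of 14 tested T cell genes, 8 were lower in females at an unadjusted p under 0.05 (median -1.44), against 4.52% of all genes, among them Cd3e, Cd3d, Cd4, Lck and Trbc2, and 0 in males. Cd3e had 0.314, 0.235 and 0.170 CPM in rapamycin females and 1.14, 0.908 and 0.568 CPM in control females. The count was 1 without control female 1, the animal with the highest sum, where 2.39% of all genes were lower. The summed T cell list was 26.9, 21.0 and 18.4 CPM in rapamycin females and 41.9, 34.3 and 19.8 CPM in control females, so the third control was near the treated animals. Of 17 B and plasma cell genes, 8 were lower in females and 1 in males, and the female count was also 1 without control female 1. The gene lower in both sexes was Igha, the heavy chain of immunoglobulin A, with 0.209, 0.529 and 0.511 CPM in rapamycin females and 9.31, 2.72 and 1.24 CPM in control females, and 0.248, 0.531 and 0.703 CPM in rapamycin males and 2.46, 1.40 and 4.85 CPM in control males (-2.97 ± 0.77, adjusted p = 0.822). All 6 treated animals were below all 6 controls.

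Genes of fatty acid synthesis, driven in liver by insulin and SREBP1c, were lower in rapamycin males for 6 of 20 members at an unadjusted p under 0.05 (Fasn, Elovl6, Pnpla3, Thrsp, Acly and Acacb; median -0.40), with 0 in females (median -0.18). Fasn, the fatty acid synthase, had 255, 389 and 304 CPM in rapamycin males and 534, 1678 and 419 CPM in control males (-1.47 ± 0.51, adjusted p = 1). The groups did not overlap, but 1 control was far above the others. Of all genes 1.34% were lower in males. The count was 0 of 20 without control male 2, 1 to 3 when any 1 rapamycin male was left out, and 3 without the doubted libraries. Srebf1 was at 308, 441 and 300 CPM in rapamycin males and 439, 514 and 369 CPM in control males (-0.33 ± 0.28).

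Glucose and insulin genes gave few differences. Of 12 gluconeogenesis genes 0 were higher and 0 lower over both sexes at an unadjusted p under 0.05, and the same held for 15 glycolysis genes, 17 genes of insulin signalling and FoxO targets, 25 cholesterol synthesis genes and 31 proteasome genes. Of 33 fatty acid oxidation genes 1 was lower, where 2.84% of all genes were lower. In females alone, all 31 proteasome genes were above 0 (median 0.21). Of these, 3 were higher at that bound, against 3.47% of all genes. In 8 every treated female was above every control female, against 7.15% of all genes. The proteasome median in males was -0.05, and -0.15 without the doubted libraries. Pck1, the gluconeogenic carboxykinase, varied more between animals than between groups, with 1598, 1923 and 831 CPM in rapamycin females and 1539, 1004 and 1033 CPM in control females, and 1187, 1142 and 2375 CPM in rapamycin males and 1248, 628 and 3674 CPM in control males (0.02 ± 0.35). Clock genes differed strongly between animals of 1 group: the output gene Dbp had 9.47, 23.9 and 1.13 CPM in rapamycin females and 58.5, 116 and 0.774 CPM in control females. Times of day of the dissections are not given in the sources used here.

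Drug and steroid metabolism held single genes rather than a common direction, with a median of 0.05 over 22 genes. Cyp3a11, the main CYP3A enzyme of mouse liver and of the family that clears rapamycin in humans, had 1076, 1966 and 1144 CPM in rapamycin females against 175, 473 and 303 CPM in control females (2.14 ± 0.48, adjusted p = 0.195). The female groups were far apart. Males had 3947, 2087 and 2361 CPM under rapamycin and 2608, 2294 and 1645 CPM in controls (0.36 ± 0.46), with overlap. Its CYP3A paralogs are close in sequence, so reads may have been divided among them.

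Male-type transcripts in females were followed further because of Slco1a1. The 16 male-biased liver genes summed to 1173, 627 and 580 CPM in rapamycin females against 451, 473 and 518 CPM in control females, without overlap, while males had 15010, 15068 and 23135 CPM under rapamycin and 15796, 12353 and 6853 CPM in controls. Slco1a1 is itself 1 of the 16. Hsd3b5, a male-type steroid enzyme, had 12.9, 1.35 and 0.567 CPM in rapamycin females and 0.703, 0.239 and 0.619 CPM in control females (3.24 ± 0.90, adjusted p = 0.306). Rapamycin female 1 was the high animal in both genes and in the sum. Of the 16 genes, 3 were higher in females at an unadjusted p under 0.05, against 3.47% of all genes, and 1 without that female, against 2.82%. That 1 gene was Slco1a1. Because Slco1a1 prompted the list and is counted in it, these counts are not separate evidence of a male-type shift. The 20 female-biased genes summed to 8235, 5639 and 7018 CPM in rapamycin females and 5085, 8878 and 8690 CPM in control females, with overlap. Igf1, the growth hormone target, had 812, 777 and 669 CPM in rapamycin females against 556, 547 and 591 CPM in control females (0.41 ± 0.16, adjusted p = 0.529), without overlap.

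Rapamycin livers were also set against those of calorie-restricted mice of the same age. Compared directly, without the controls, 1467 of 13639 genes (10.8%) differed, 768 higher and 699 lower in the rapamycin livers, and 1018 without the doubted libraries. Nr1d1, the clock repressor REV-ERBα, ranged from 32.2 to 170 CPM (median 112) in rapamycin livers and from 1.13 to 7.41 CPM (median 1.82) in calorie-restricted livers, a difference of 5.40 ± 0.50 on the log2 scale (adjusted p = 4.00e-06). Tfrc, the transferrin receptor, ranged from 5.46 to 13.2 CPM (median 9.98) under rapamycin and from 26 to 142 CPM (median 103) under restriction (-3.28 ± 0.43, adjusted p = 0.000143). Pcp4l1 (-3.47 ± 0.35) and Tsku, a secreted liver factor (-3.28 ± 0.52), were lower under rapamycin than under restriction. Against controls, Nr1d1 was at 0.06 ± 0.40 under rapamycin and -5.34 ± 0.50 under restriction. In the same order Tfrc was at -0.21 ± 0.41 and 3.07 ± 0.43, Tsku at 0.03 ± 0.49 and 3.31 ± 0.52, and Pcp4l1 at -0.59 ± 0.33 and 2.89 ± 0.34. Slco1a1 (3.70 ± 0.47), Hsd3b5 (3.83 ± 0.68) and Mup18 (3.52 ± 0.80) were higher. Rgs16 and Nnmt also passed but not without the doubted libraries.

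By list, 8 of 19 heat shock genes were lower under rapamycin than under restriction and 0 were higher, as were 5 of 15 glycolysis genes and 8 of 22 drug and steroid metabolism genes, with 1 higher in the last list. Over all 13639 genes, 699 were lower and 768 higher. Against the shared controls, restriction had 919 of all 13639 genes called higher and 961 called lower. In these lists it had 13 heat shock, 5 glycolysis and 9 drug metabolism genes called higher and 0 called lower. Rapamycin had 0 called in these lists over both sexes, with a heat shock median of 0.22, beside 0.84 for restriction. Hsp90aa1 was at -1.50 ± 0.28 (adjusted p = 0.00164) and the mitochondrial chaperone Hspd1 at -0.60 ± 0.10. On the other side, 9 of 36 autophagy and lysosome genes were higher under rapamycin, with Atg13 at 0.84 ± 0.13 (adjusted p = 0.000269), and 7 of 16 male-biased genes and 7 of 25 complement and coagulation genes were higher, with 0 lower in each of the 3 lists. Set against controls, restriction had 9 autophagy and lysosome genes called lower and 2 called higher. It had 4 male-biased and 6 complement and coagulation genes called lower, and 0 called higher. Rapamycin over both sexes had 0 called in each of the 3. Eif4e was lower, at -0.33 ± 0.09 (adjusted p = 0.0212). Of 30 interferon-response genes 3 were higher under rapamycin and 0 lower. Against the shared controls the interferon list had medians over both sexes of -0.34 for rapamycin, -0.77 for restriction and -0.59 for acarbose, which cannot be read as independent because the same 6 control livers enter each.

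Acarbose, an inhibitor of intestinal starch digestion, was the other comparison without controls: 19 genes (0.139%) differed, 6 higher and 13 lower under rapamycin, and 10 passed without the doubted libraries. Slco1a1 was higher by 3.33 ± 0.45 (adjusted p = 0.0028), from 10.1 to 602 CPM (median 287) in rapamycin livers and from 0.924 to 300.3 CPM (median 69.9) in acarbose livers, where both ranges span the sexes. The urinary protein gene Mup3 (1.76 ± 0.31), the carboxylesterase Ces3a (1.0 ± 0.16) and coagulation factor F11 (0.85 ± 0.15) were also higher. Against controls, Mup3 was at 0.51 ± 0.31 under rapamycin and -1.25 ± 0.31 under acarbose. In that order Ces3a was at 0.23 ± 0.15 and -0.77 ± 0.16, and F11 at 0.27 ± 0.15 and -0.58 ± 0.15. Cyp2b10 was lower by 1.82 in rapamycin livers (-1.82 ± 0.24, adjusted p = 0.00162), with 4.85 to 82.9 CPM (median 31.4) against 36.6 to 108 CPM (median 75.9) under acarbose. It was also lower than under calorie restriction (-2.56 ± 0.25). Abcb1a, a drug efflux pump (-1.78 ± 0.27), and the glutathione transferase Gsta2 (-2.50 ± 0.38) were lower than under acarbose, the second with an adjusted p of 0.0513 without the doubted libraries, where Ildr2 and Oat also lost their calls. Against controls, Gsta2 was at -0.19 ± 0.36 under rapamycin and 2.31 ± 0.37 under acarbose. In that order Abcb1a was at -0.48 ± 0.28 and 1.30 ± 0.27, and Cyp2b10 at -1.03 ± 0.24 and 0.79 ± 0.23.

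**Figure D4:**
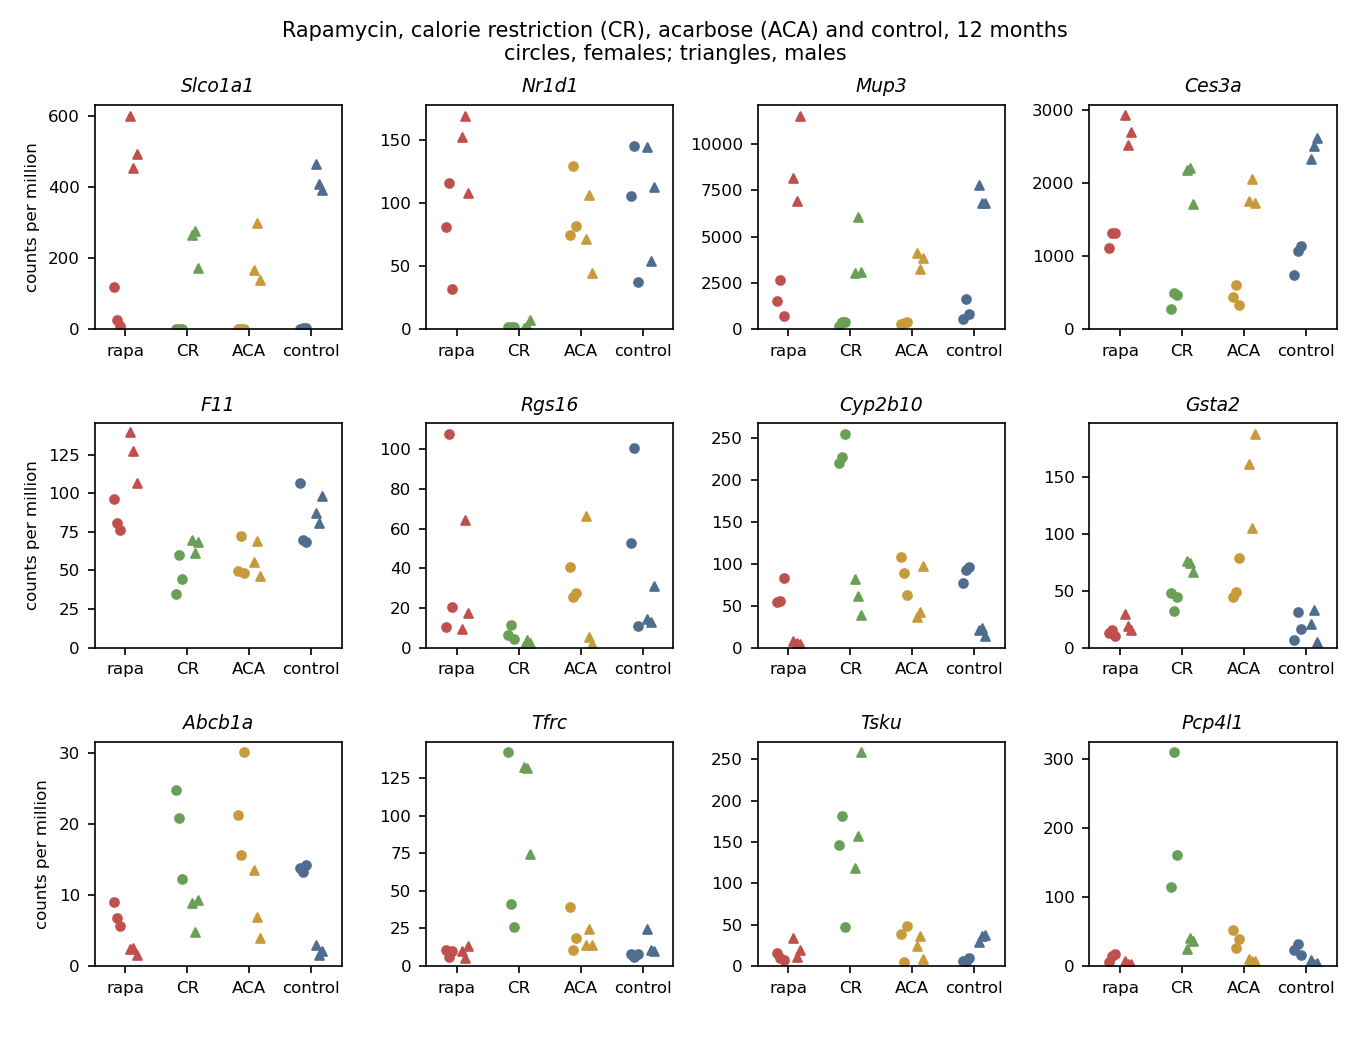
CPM of 12 genes in every 12-month liver on rapamycin, calorie restriction (CR), acarbose (ACA) or control diet, with circles for females and triangles for males. Cyp2b10 is low in the rapamycin males at 4.85 to 8.32, and Slco1a1 is above 10 in the rapamycin females while the females of the other 3 groups are below 3.

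Rapamycin given at 6 months of age was set beside the 12-month result in a joint fit of 15159 genes. Age, dose and length of treatment differ together between the 2 sets and cannot be told apart. At 6 months 36 genes were called (0.237%), 28 higher and 8 lower. Of these, 16 had the same sign at 12 months, and the correlation of log2 fold changes across genes was 0.18 (rho -0.02), from separate controls, as a description over genes that are not independent. Without 8 libraries of both ages that were set aside for RNA of other tissues, 30 were called, 9 with the same sign, and the correlation was -0.05. Lars2, the mitochondrial leucyl-tRNA synthetase, was at 0.24 ± 0.21 at 12 months and -1.22 ± 0.21 at 6 months. Ppox, of haem synthesis, was at -0.23 ± 0.13 and 0.59 ± 0.13 in the same order. mt-Nd3, of complex I, was above 0 at both ages, with 0.40 ± 0.25 at 12 months and 1.04 ± 0.21 at 6 months. Control livers of the 2 sets themselves differed in these genes. Lars2 ran from 1628 to 2834 CPM in 12-month controls and from 127 to 592 CPM in 6-month controls. For mt-Nd3 the ranges were 1.88 to 3.00 and 9.84 to 21.9 CPM. The source of these gaps was not tested. For the 12-month minus the 6-month effect, 0 of 15159 genes (0%) were called in edgeR, with a smallest adjusted p of 0.0501 and 1513 genes at an unadjusted p under 0.05, and DESeq2 called 82. Lars2 and Ppox were among the nearest, each with an adjusted p of 0.0528. Some genes called at 6 months are those of other tissues, such as Star of the adrenal gland and Actc1 of heart muscle. Actc1 had 4.56, 6.45 and 6.48 CPM in the 6-month rapamycin females and 6.89 CPM in rapamycin male 1. In the 6-month controls it had at most 0.140 CPM. These rapamycin libraries were not among the 8 set aside, so that fit was not free of other tissues.

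**Figure D5:**
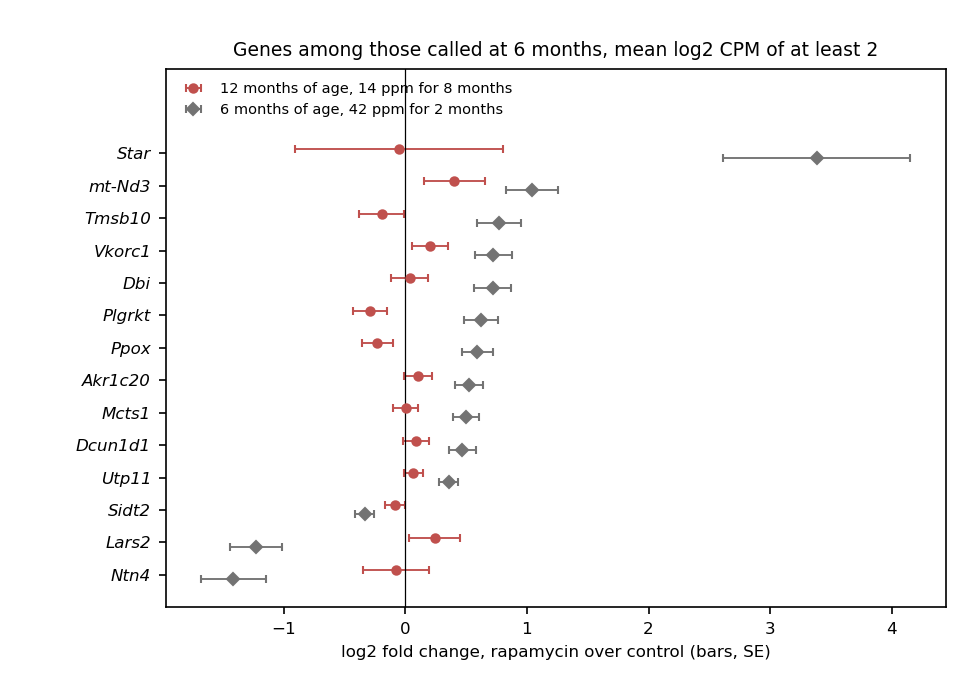
Log2 fold change, rapamycin over control, with SE bars, for genes among those called at 6 months with a mean log2 CPM of at least 2, at 12 months (circles) and 6 months (diamonds). The 12-month values lie between -0.29 and 0.40, and Plgrkt, Ppox, Tmsb10 and Lars2 are among those with opposite signs at the 2 ages.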

How the data were processed

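The authors deposited 1 table of raw read counts per gene, with 43629 genes and 78 libraries. Per the labels' protocols, RNA was extracted with a PureLink kit and made into TruSeq v2 libraries. Per the submitters' processing notes, bcl2fastq 1.8.4, Trimmomatic 0.32, STAR 2.5.2b and featureCounts 1.5 were used, with mm10 or GRCm38. The strand of counting is not given in the sources used here, so reads of overlapping or antisense genes, and of near-identical paralogs (Cyp2b, Cyp3a, Mup, Oas1), may have been divided or pooled.

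From there, edgeR 4.0.16 under R 4.3.3 was used (TMM scaling, filterByExpr, robust quasi-likelihood fit). The 24 libraries of 12 months were fitted with 1 coefficient per group, so that sex entered as part of the group, and 60 libraries of both ages were fitted jointly for the 6-month comparison. Depth was 15827608 to 20638697 counts in the 12 libraries compared, and no pair of libraries within a group was a copy. Each SE was derived from a log2 fold change and its F statistic, and the steps were tested on simulated data. Gene positions are from GENCODE on GRCm38 and promoters from RefSeq. Members, the 55 gene lists and the tests were chosen with earlier results of these data known, and 3 list symbols were matched by synonyms.

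Named genes were the 10 per direction with the smallest unadjusted p among genes whose mean log2 CPM was 2 or more and whose 6 rapamycin livers were all above, or all below, the mean of the controls of their sex. The fit without the doubted libraries did not enter this choice. They were joined by 10 core genes of the mTOR pathway, up to 5 called genes per direction for females, males and the other comparisons, and members of the lists. Results of some genes that met the rule are not reported here. Alternatives were RLE scaling, no filter, a replicate block, DESeq2 1.42.0, the 12 libraries alone, and leaving out libraries. The labels name biological replicates, so p-values measure the spread between these animals.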

Additional observations from a re-analysis of the deposited data

Results flagged for a closer look

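In rapamycin male 3 at 12 months, 26 skeletal muscle genes summed to 47250 counts, against 133 to 392 in the other 11 rapamycin and control libraries of that age. In the same library 20 squamous epithelium genes summed to 16355 counts, against 27 to 68. Both signals are above the level in all 6 control livers. Of these genes, 4 of muscle and 5 of squamous epithelium were among those tested in the liver comparison. In males 3 of the 4 and 4 of the 5 were higher at an unadjusted p under 0.05, against 1.72% of all genes. Without the doubted libraries these counts were 0 and 0. How this RNA entered the library was not tested. Groups of 3 are too small for a test of single outlying samples.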

How the results depend on the processing

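With RLE scaling all counts of called genes stayed within 1.5 times the counts reported. Without the filter on low counts, 1 gene was called over both sexes, 0 in females and 10 against acarbose. Without the doubted libraries there were 0 calls in females, 0 in males and 10 against acarbose. The 12 libraries fitted alone gave 0 in females and 0 in males. With a replicate block there were 0 calls in females and 0 in males, and 1393 against calorie restriction; same-numbered animals correlated between -0.187 and 0.205 in their deviations from group means, so the numbers do not pair the animals. DESeq2 called 10 genes over both sexes, 41 in females, 8 in males, 6 for the difference between the sexes, 120 against acarbose, 82 for the difference between the ages and 3 list members over both sexes. Leaving out 1 library at a time gave 0 to 1 calls over both sexes, 0 to 2 in females, 0 to 9 in males, 0 to 2 between the sexes, 1037 to 1702 against calorie restriction, 6 to 49 against acarbose and 0 to 36 between the ages. The 49 came without acarbose female 2 and the 36 without control female 3, and the 9 in males came without rapamycin male 2 and included muscle genes. The lowest count against acarbose came without rapamycin female 1. Of 1061 values for named genes under the alternatives, 0 called values changed sign, 99 lost a call and 4 gained one. The signs of Deptor, Eif4ebp1 and Fkbp1a, none of them called, changed in 2, 1 and 3 alternatives. Genes with few reads, among them Ifi202b, Oas1a and Ifi44, are limited by depth. The causes of these shifts were not tested.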
